A study of Mus musculus with 6 samples.

Results

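The transcripts of the Dickkopf proteins and of the receptors they act on were examined in cultured mouse pancreatic acini. The set comprised 9 of the 56953 genes in the count table, taken by gene name and not by value, although earlier results of these data were known. They were Dkk1, Dkk2, Dkk3, Dkk4 and Dkkl1 (the Dickkopf family), Kremen1 and Kremen2 (Dickkopf receptors), and Lrp5 and Lrp6 (Wnt co-receptors). Each of 3 groups had 2 libraries of bulk RNA-seq. WT acini came from wild-type mice, DD acini from mice homozygous for a Dkk3-null allele, and DD + rDKK3 acini from Dkk3-null mice with commercial soluble recombinant DKK3 added to the culture. All cultures were embedded in Matrigel, fed serum-containing Waymouth's medium with trypsin inhibitor and dexamethasone, and collected at day 3 of an ex vivo assay of acinar-to-ductal metaplasia (ADM), in which acini lose secretory identity and form duct-like structures. The labelled ages were 10 and 11 weeks in WT, 12 and 13 weeks in DD, and 14 and 15 weeks in DD + rDKK3, so that age and group cannot be told apart. The null allele is carried by every cell of the animal, not by acini alone. The labels name no animal. The same library numbers recur in the titles of DD and DD + rDKK3, which do not say whether they mark the same mice. The main tests took these libraries as unpaired. The different ages within a group, if right, mark its 2 libraries as separate animals. The ages also differ between same-numbered libraries of DD and DD + rDKK3 and, if right, mark these as separate animals too.

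In canonical Wnt signalling, a Wnt ligand binds a Frizzled receptor together with LRP5 or LRP6, and beta-catenin is then spared from degradation. DKK1, DKK2 and DKK4 are secreted proteins that bind LRP5 and LRP6, and KREMEN1 and KREMEN2 bind these DKKs and help to remove the LRP from the cell surface. DKK3 is the divergent member of the family and is not a classical LRP antagonist, while DKKL1 (soggy) resembles DKK3 and is best known from the testis.

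The Dkk3 sequence that the null allele replaces is shown because it decides what a gene count can say about the knockout. Dkk3 (ENSMUSG00000030772.7) lay on the minus strand of chromosome 7, from 111715224 to 111758264 in GRCm39. In the canonical transcript of the later GENCODE annotation used for exons, exon 2 of 8 spanned chr7:111757390-111757625 (236 bases). Its last 213 bases, chr7:111757390-111757602, are coding and hold 71 codons, or 20.3% of the 1047 coding bases. They are given 5′ to 3′ on the gene's strand, with the start codon in capitals.
Dkk3 exon 2, coding part: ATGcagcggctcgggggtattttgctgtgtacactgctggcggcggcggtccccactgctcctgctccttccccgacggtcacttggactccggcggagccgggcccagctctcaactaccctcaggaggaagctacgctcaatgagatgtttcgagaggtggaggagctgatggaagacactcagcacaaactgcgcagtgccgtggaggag
All 21 annotated start codons, in 21 annotated transcripts, lay in this exon, which the study describes as holding the signal sequence for secretion. Per the study, an intracellular product, DKK3B, arises from a separate start in intron 2. Reads from exons 3 to 8 of either product are summed into the same gene count where they fall within the counted gene span. Exon 8 of the later annotation runs on to 111712904, past the end of that span at 111715224. Reads from that stretch are not part of the Dkk3 count.

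**Figure D1:**
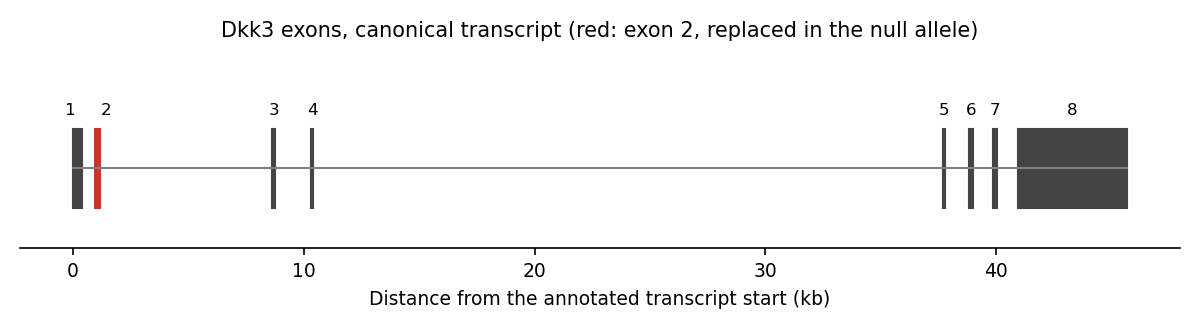
Exons of the canonical Dkk3 transcript (boxes, numbered) along the distance from the annotated transcript start in kb, drawn to scale, with exon 2 in red. Exon 2 takes up 236 bases close to the start, while exon 8 alone takes up 4734 bases at the other end. Part of exon 8 as drawn lies outside the gene span that was counted.

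The 6 libraries held 12018473 to 19750401 counts. Acinar markers (16 of 16 tested, none at 0) summed to 181000 and 139300 CPM in WT, against 104800 to 138600 CPM in the 4 Dkk3-null libraries, where CPM is the count normalised to the TMM-scaled depth of its library. In DD against WT their median log2 fold change was -0.67, and 6 of 16 had an unadjusted edgeR p under 0.05, with none called. Fibroblast and stellate markers (18 of 18 tested, none at 0) summed to 1299 CPM in DD 2 and 1376 in DD + rDKK3 2, against 104 to 288 in the other 4 libraries, and the same 2 libraries stood apart on the first principal component (42.3% of the variance). WT 1 stood apart on the second (32.3%), at 52.8 against -29.9 to 12.2 in the other libraries. It also had the fewest counts and the lowest TMM scaling factor, 0.848. Ductal markers (12 of 12 tested, none at 0) summed to 6196 and 4830 CPM in WT and to 5346 and 5439 in DD cultures. With rDKK3 added they summed to 4607 and 4318 CPM. Relative to WT, these genes shifted in DD cultures by a median of 0.037 log2 units. Of the 12, 0 had an unadjusted edgeR p under 0.05. With rDKK3 added, the median shift from WT was -0.28 log2 units and 5 of 12 were under 0.05, with none called. Endothelial markers summed to 145 to 239 CPM and macrophage markers to 145 to 354. The library labelled female, WT 2, held 16 Xist counts and as much Y-linked RNA as the others.

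The 9 genes fell into 3 levels (the plot of raw counts by gene). Lrp5, Lrp6 and Kremen1 had at least 207 counts in every library. Dkkl1 had 11 to 28 counts. The other 5 genes were below 10 counts in at least 4 of the 6 libraries, and Dkk1, Dkk2, Dkk4 and Kremen2 were below 10 in all 6. A filter on low counts was passed by 4 of the 9 genes (Dkkl1, Kremen1, Lrp5 and Lrp6), and 5 did not pass it.

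**Figure D2:**
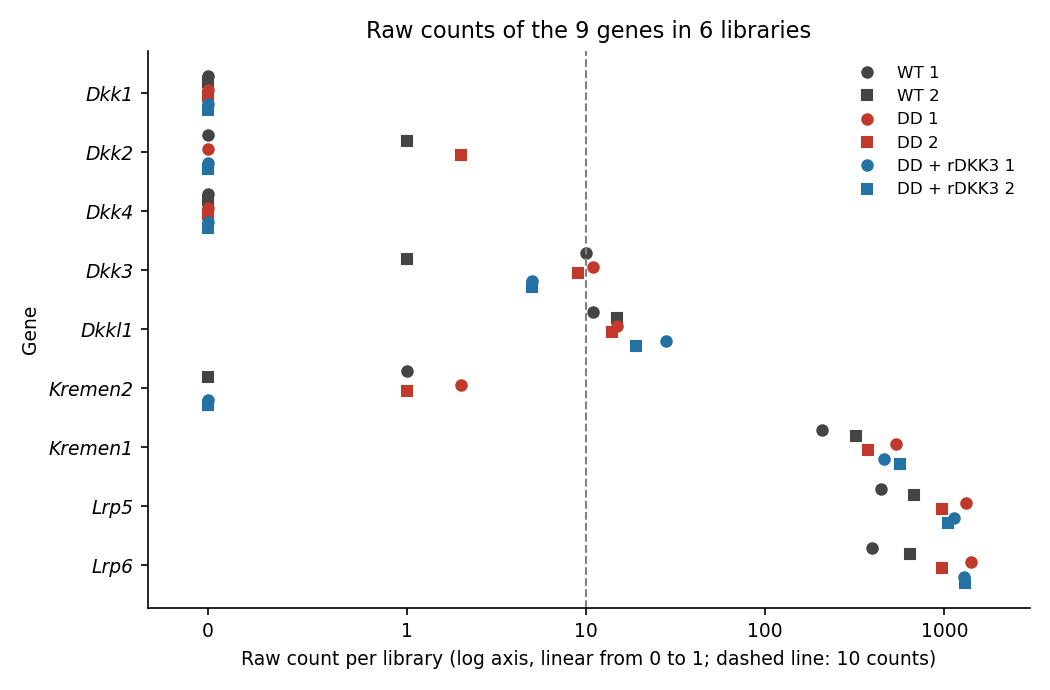
Raw count of each gene (rows) in each library (points; circle, replicate 1; square, replicate 2; colours give the groups) on an axis that is linear from 0 to 1 and logarithmic above, with 10 counts as a dashed line. Dkk1 and Dkk4 sit at 0 in all 6 libraries, and Kremen1, Lrp5 and Lrp6 have at least 207 counts in each.

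Of the classical LRP-binding ligands, no Dkk1 or Dkk4 read was counted. Dkk1 (ENSMUSG00000024868.9, chromosome 19, 30523263 to 30527065, minus strand) and Dkk4 (ENSMUSG00000031535.8, chromosome 8, 23114059 to 23117563, plus strand) had 0 counts in each of the 6 libraries. Over the pooled libraries, a count of 0 allows up to 0.0299 CPM (3 counts). In single libraries this limit ran from 0.142 CPM in DD 1 to 0.294 CPM in WT 1, so that lower levels were not detectable at this depth.

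Dkk2 (ENSMUSG00000028031.7, chromosome 3, 131791053 to 131886065, plus strand) had 1 count in WT 2, 2 counts in DD 2 and 0 in the other 4 libraries. The pooled level was 0.0299 CPM (95% Poisson interval 0.00618 to 0.0875). All groups were at or under 3 counts a library, and no fold change is given. Intervals and limits of this kind cover counting error only.

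Dkk3, the gene targeted in the DD mice, was counted at a low level in all 6 libraries. It had 10 counts in WT 1 and 1 in WT 2, 11 in DD 1 and 9 in DD 2, and 5 in each DD + rDKK3 library. The spread within WT, from 1 to 10 counts, covered nearly the whole range of the other libraries. In CPM the groups measured 0.526 ± 0.644 in WT, 0.524 ± 0.00603 in DD cultures and 0.266 ± 0.00342 with rDKK3 added (SD, n = 2 each). The SD of the DD and DD + rDKK3 pairs was far smaller than counting error, since 5 counts alone have a 95% Poisson interval of 0.0857 to 0.616 CPM.

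No difference in Dkk3 was called. In the edgeR model without the low-count filter, the log2 fold change of DD against WT was 0.16 (SE 0.731, 95% interval -1.27 to 1.60, adjusted p 1). Between DD + rDKK3 and DD it was -0.97 (-2.41 to 0.48, adjusted p 1), with both DD + rDKK3 libraries below both DD libraries, and for DD + rDKK3 against WT it was -0.80 (-2.35 to 0.74, adjusted p 0.843). The sign of both comparisons with WT turned on which WT library was used. Without WT 2 the DD value was -0.84 and without WT 1 it was 2.82, and the DD + rDKK3 values were -1.80 and 1.86. The unfiltered fit called 1.99% of 26506 genes in DD against WT, 0.275% in DD + rDKK3 against DD and 2.97% in DD + rDKK3 against WT, and Dkk3 was not among them. The fibroblast and stellate markers summed to 246 CPM in WT 1, with 10 Dkk3 counts, and to 104 CPM in WT 2, with 1 count. They summed to 149.5 CPM in DD 1, with 11 Dkk3 counts, and to 1299 CPM in DD 2, with 9. In DD + rDKK3 1 and DD + rDKK3 2 they summed to 288 and 1376 CPM, with 5 Dkk3 counts in each. The part of these cells in the Dkk3 counts was not tested.

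Dkkl1 (ENSMUSG00000030792.9, chromosome 7, 44856943 to 44861571, minus strand) was the best detected Dickkopf family transcript. Its counts were 11 and 15 in WT, 15 and 14 in DD cultures, and 28 and 19 with rDKK3 added. In CPM these were 1.08 and 1.05, 0.709 and 0.822, and 1.48 and 1.02. Both DD libraries lay below the other 4, and both WT libraries fell between the DD + rDKK3 values. The Poisson intervals of single libraries overlapped throughout (the highest, DD + rDKK3 1, had 0.982 to 2.13 CPM and the lowest, DD 1, had 0.397 to 1.17). The log2 fold change was -0.48 for DD against WT (SE 0.443, 95% interval -1.50 to 0.55, adjusted p 0.691). It was 0.70 for DD + rDKK3 against DD (SE 0.423, -0.28 to 1.69, adjusted p 1.00) and 0.23 for DD + rDKK3 against WT (-0.77 to 1.22, adjusted p 0.799). Without DD + rDKK3 1, the last value turned to -0.062.

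**Figure D3:**
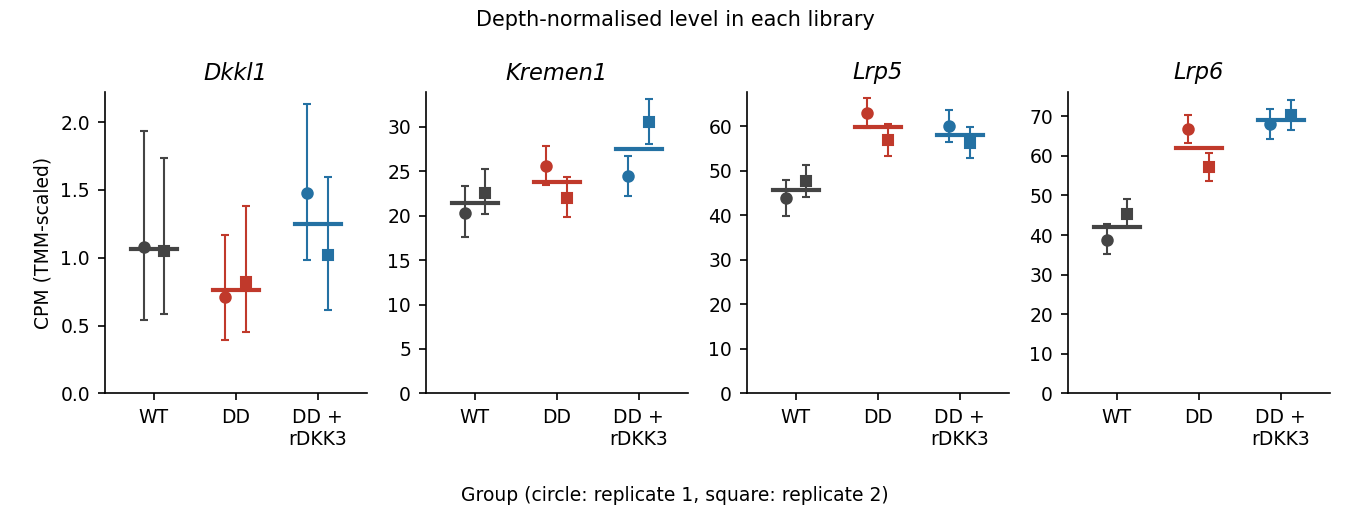
CPM (TMM-scaled, axes from 0) of the 4 genes past the filter in each library, with 95% Poisson intervals of the count and the group mean as a bar; circles are replicate 1 and squares replicate 2. For Lrp5 and Lrp6 both WT points lie below all 4 points of Dkk3-null cultures, whereas for Kremen1 and Dkkl1 WT overlaps at least one other group.

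Of the Kremen receptors, Kremen1 was well detected and Kremen2 was not. Kremen2 (ENSMUSG00000040680.10, chromosome 17, 23960171 to 23964807, minus strand) had 1 and 0 counts in WT, 2 and 1 in DD cultures, and 0 and 0 with rDKK3 added, a pooled level of 0.0399 CPM (95% Poisson interval 0.0109 to 0.102). No fold change is given for it, because every library was at or under 3 counts. Kremen1 (ENSMUSG00000020393.17, chromosome 11, 5141552 to 5211558, minus strand) had 207 and 322 counts in WT, 540 and 374 in DD cultures, and 463 and 568 with rDKK3 added. The range was narrower in CPM, where it measured 20.3 and 22.6 in WT, 25.5 and 22.0 in DD cultures, and 24.4 and 30.5 with rDKK3 added. WT and DD overlapped, DD and DD + rDKK3 overlapped, and DD + rDKK3 lay above WT.

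The highest Kremen1 value was in DD + rDKK3 2, a library rich in fibroblast and stellate markers, but DD 2, the other such library, was the lower of its pair. The part of those cells in Kremen1 was not tested, and in bulk RNA a change in cell numbers and a change in RNA per cell cannot be told apart. The log2 fold change was 0.15 for DD against WT (SE 0.179, 95% interval -0.27 to 0.56, adjusted p 0.760), 0.21 for DD + rDKK3 against DD (SE 0.176, -0.20 to 0.62, adjusted p 1.00) and 0.36 for DD + rDKK3 against WT (SE 0.178, -0.060 to 0.77, adjusted p 0.356). With both fibroblast-rich libraries left out, an alternative added after seeing the data, the value against DD turned to -0.057.

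Lrp5 was higher in every Dkk3-null library than in either WT library, and its DD and DD + rDKK3 values overlapped. Lrp5 (ENSMUSG00000024913.17, chromosome 19, 3634828 to 3736564, minus strand) measured 43.8 and 47.6 CPM in WT, 62.9 and 56.9 in DD cultures, and 60.0 and 56.2 with rDKK3 added, from 446 to 1330 counts a library. The 4 Dkk3-null libraries overlapped each other and left a gap to WT. The log2 fold change was 0.39 for DD against WT (1.31-fold, SE 0.144, 95% interval 0.055 to 0.72). Its unadjusted p in the edgeR quasi-likelihood test was 0.0279 and its adjusted p 0.586, so that it was not called. DD + rDKK3 against DD gave -0.043 (SE 0.142, -0.37 to 0.29, adjusted p 1.00), an interval that leaves room for a change of up to 1.22-fold upwards, and without DD 1 the value was 0.0095. DD + rDKK3 against WT gave 0.35 (1.27-fold, 0.012 to 0.68, adjusted p 0.323).

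Lrp6 showed the largest differences of the 4 genes past the filter in both comparisons with WT. Lrp6 (ENSMUSG00000030201.16, chromosome 6, 134423439 to 134543928, minus strand) measured 38.9 and 45.4 CPM in WT, 66.7 and 57.1 in DD cultures, and 68.0 and 70.3 with rDKK3 added, from 396 to 1411 counts a library. No group overlapped another, and the order was WT, DD, DD + rDKK3. The Poisson intervals of DD 1 (63.3 to 70.3 CPM) and DD + rDKK3 1 (64.3 to 71.8) were nearly the same. Depending on the comparison, 29.5% to 55% of all genes showed no overlap, and the share with this order of all groups was not computed. The log2 fold change of DD against WT was 0.55 (1.47-fold, SE 0.157, 95% interval 0.19 to 0.92), with an unadjusted edgeR quasi-likelihood p of 0.0084 and an adjusted p of 0.586. DD + rDKK3 against DD gave 0.16 (SE 0.155, -0.20 to 0.52, adjusted p 1.00). The DD + rDKK3 libraries were thus farther from WT than the DD libraries were, and DD + rDKK3 against WT gave 0.71 (1.64-fold, SE 0.158, 0.35 to 1.08).

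Whether the last difference was called depended on the test. With edgeR and the filter its adjusted p was 0.322, with edgeR and no filter the log2 fold change was 0.76 and the adjusted p 0.0062, and with DESeq2 the log2 fold change was 0.72 and the adjusted p 0.0178. The unfiltered fit shared the spread of all genes almost wholly, and so drew little on the spread of Lrp6 itself. In this comparison it called 788 genes and DESeq2 called 74, against 7 with edgeR and the filter. Over all alternatives the adjusted p ran from 0.0062 to 0.911, while the log2 fold change stayed between 0.63 and 0.87. Leaving out DD 2 and DD + rDKK3 2, where fibroblast and stellate markers were highest, left 0.66 for DD against WT and 0.69 for DD + rDKK3 against WT, with a single Dkk3-null library in each group, and 0.034 between them. The adjusted p was then 0.726 and 0.911 in the comparisons with WT, and the part of those cells in Lrp6 was not tested. The summed acinar markers, given above, were lower in all 4 Dkk3-null libraries than in either WT library, where Lrp5 and Lrp6 were higher. The smallest gap was between 138600 CPM in DD + rDKK3 1 and 139300 in WT 2. In DD + rDKK3 against DD, 16 of 16 acinar markers had a positive log2 fold change (median 0.23). Lrp6 was also positive there (0.16), and Lrp5 was not (-0.043). The part of acinar cells in Lrp5 and Lrp6 was not tested either.

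**Figure D4:**
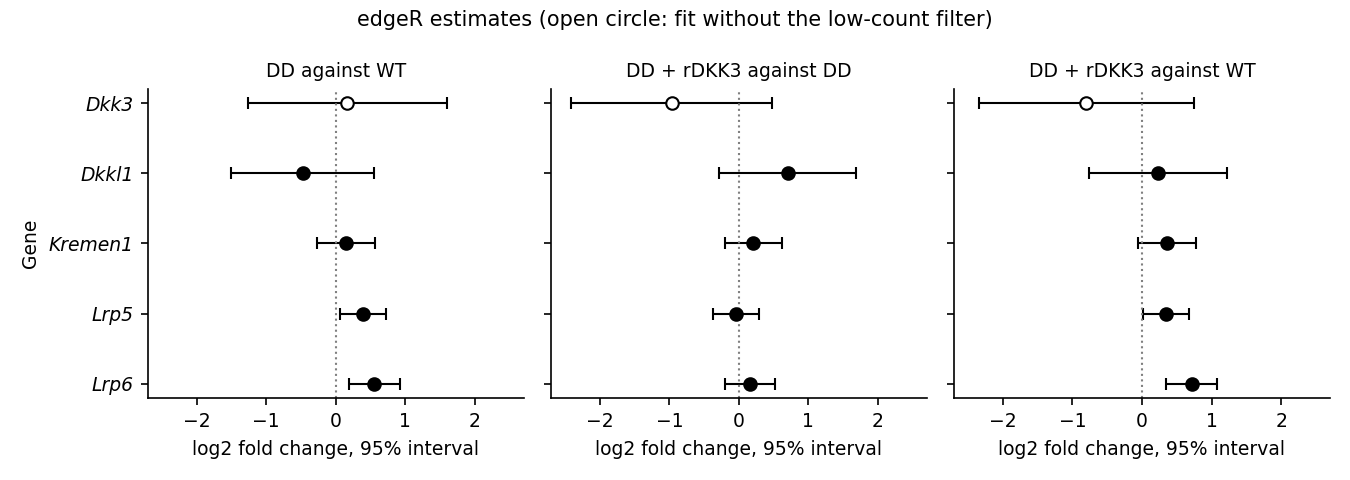
log2 fold change with its 95% interval (x axis) of the 5 genes that allowed a fold change, in the 3 comparisons; filled circles are edgeR estimates with the filter and the open circle of Dkk3 is from the fit without it. The intervals of Lrp5 and Lrp6 lie above 0 in both comparisons with WT and cross it in DD + rDKK3 against DD, and the interval of Dkk3 spans more than 2 log2 units in each.

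None of the 4 genes past the filter was called in any comparison by edgeR at an adjusted p under 0.05, where 0.0407% of 14738 genes were called in DD against WT, 0% in DD + rDKK3 against DD and 0.0475% in DD + rDKK3 against WT. At an unadjusted p under 0.05, Lrp5 and Lrp6 passed in DD against WT (2 of 4, against 8.26% of all genes), none passed in DD + rDKK3 against DD (against 1.98%), and the same 2 genes passed in DD + rDKK3 against WT (against 15.3%). DD against WT and DD + rDKK3 against WT use the same WT libraries. The groups did not overlap for 3 of 4 genes in DD against WT (37.8% of all genes), 2 of 4 in DD + rDKK3 against DD (29.5%) and 3 of 4 in DD + rDKK3 against WT (55% of all genes). The median log2 fold change of the 4 genes was 0.27, 0.18 and 0.35 in this order, beside 0.016, -0.0028 and 0.017 over all genes tested.

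The balance between the co-receptors was compared within each library, where library scaling cancels. This measure was chosen after the values were seen. Lrp6 took 47.0% (95% exact binomial interval 43.6 to 50.5) and 48.8% (46.1 to 51.5) of the summed Lrp5 and Lrp6 counts in WT, 51.5% (49.6 to 53.4) and 50.1% (47.9 to 52.4) in DD cultures, and 53.1% (51.1 to 55.1) and 55.5% (53.5 to 57.6) with rDKK3 added. The share was lowest in WT and highest in DD + rDKK3, with no overlap between groups. The means were 47.9% ± 1.25, 50.8% ± 0.954 and 54.3% ± 1.72 (SD, n = 2 each). The difference was 2.89 percentage points for DD against WT, 3.52 for DD + rDKK3 against DD and 6.42 for DD + rDKK3 against WT, each with a two-sided exact permutation p of 0.333, the smallest that 2 against 2 libraries can give. Groups of this size that do not overlap always give this p, so the test cannot decide whether the share differs. How often other pairs of genes show no overlap was not computed.

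**Figure D5:**
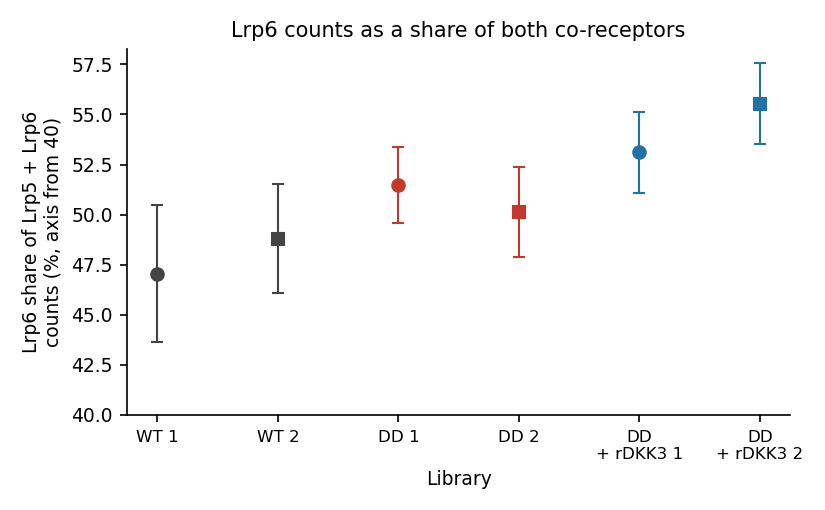
Lrp6 counts as a percentage of the Lrp5 and Lrp6 counts of each library (y axis from 40%), with 95% exact binomial intervals; circles are replicate 1 and squares replicate 2. The points lie lowest in WT, at 47.0 and 48.8%, and highest in DD + rDKK3, at 53.1 and 55.5%. The intervals of WT and DD overlap, and that of DD + rDKK3 1 overlaps those of both DD libraries and of WT 2. Only that of DD + rDKK3 2 lies above those of both DD libraries, starting at 53.5% where that of DD 1 ends at 53.4%. All intervals cover counting error only, not variation between cultures.

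Levels were compared between genes only per length, as CPM divided by the kilobases of exon (RPKM). Lrp5 was the highest at a mean of 9.08 RPKM over the 6 libraries, followed by Lrp6 at 5.30, Kremen1 at 2.52, Dkkl1 at 0.756 and Dkk3 at 0.109. The ranges over libraries did not overlap between neighbours in this order, with Lrp5 at 7.29 to 10.5 RPKM, Lrp6 at 3.57 to 6.45, Kremen1 at 2.11 to 3.17, Dkkl1 at 0.522 to 1.09 and Dkk3 at 0.0175 to 0.244. Kremen2 (mean 0.0197 RPKM) and Dkk2 (mean 0.00835 RPKM) could not be ordered at their counts. Among genes tested, Lrp5 stood at percentile 71.9 of mean RPKM, Lrp6 at 60.2, Kremen1 at 42.9 and Dkkl1 at 20.5. The ratio of Lrp6 to Lrp5 RPKM was 0.490 and 0.525 in WT, 0.585 and 0.554 in DD cultures, and 0.625 and 0.689 with rDKK3 added, so that Lrp5 was the more abundant co-receptor per length in every library.

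Sequence shared with other genes was small. Of all 50-base stretches of each gene's transcripts, from 0% (Dkk4) to 1.26% (Dkk1) also occurred in another gene, with 0.705% for Lrp6 and 0.0985% for Lrp5, and none was shared between 2 of the 9 genes. Genes that overlap the 9 lie on the opposite strand, and counting was strand-specific.

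The genes whose pattern over the 6 libraries was most like each member were found by the root mean square distance of centred log2 CPM. For Lrp6 the nearest of 8837 genes were Unc13b (0.042), Tirap (0.044) and Sipa1l3 (0.055). For Lrp5 they were Triobp (0.033), Lrrc20 (0.034) and Klhl26 (0.041). For Kremen1 they were Sec14l4 (0.028), Fhip2a (0.035) and Wdr13 (0.052), and for Dkkl1, at greater distances, Nupr1 (0.12), Tmem131l (0.14) and Plin5 (0.16). The co-receptors were not each other's neighbours, with a distance of 0.16 between Lrp5 and Lrp6.

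The rest of the Wnt pathway was described by 91 further genes in 8 lists, of which 61 were tested. None was called in the 3 comparisons. At an unadjusted edgeR p under 0.05, 3 were higher and 1 lower in DD against WT (6.56% of 61), 1 was higher and 1 lower in DD + rDKK3 against DD (3.28%), and 6 were higher and 2 lower in DD + rDKK3 against WT (13.1%). These shares lay near the shares over all genes given above. The median log2 fold change of the 61 genes was 0.16, 0.032 and 0.25 in the same order.

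Among Wnt ligands, 7 of 19 were tested, and Wnt4 was the most abundant per length of those named, at 17.1 RPKM, with 66.2 ± 2.84 CPM in WT, 73.7 ± 0.859 in DD cultures and 88.8 ± 23.1 with rDKK3 added. Wnt7b, which can signal through the canonical pathway, measured 8.70 ± 0.789, 7.54 ± 1.77 and 5.72 ± 0.115 CPM, with a log2 fold change of -0.61 (adjusted p 0.322) for DD + rDKK3 against WT. Wnt5a, mostly a non-canonical ligand, had 15 and 19 counts in WT, 42 and 91 in DD cultures, and 37 and 76 with rDKK3 added. Its highest counts fell in DD 2 and DD + rDKK3 2, the libraries with the highest fibroblast and stellate marker sums, whose part was not tested. Of the genes for ligand secretion, Wls, the Wnt carrier, measured 108 ± 11.1, 102 ± 17.2 and 96.6 ± 12.9 CPM, and Porcn, the acyltransferase for Wnts, measured 5.55 ± 0.611, 4.25 ± 1.28 and 6.09 ± 0.863 CPM. Neither passed the test in any comparison.

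Of 14 Frizzled and other Wnt receptors, 13 were tested. Fzd3 measured 33.5 ± 4.98 CPM in WT, 24.1 ± 1.53 in DD cultures and 29.7 ± 0.457 with rDKK3 added, and its log2 fold change of -0.47 in DD against WT had an adjusted p of 0.586. Fzd6 measured 13.6 ± 0.981, 17.6 ± 2.08 and 15.5 ± 0.312 CPM. Fzd1 had 443 counts in DD 2 and 431 in DD + rDKK3 2 against 65 to 162 in the other libraries, the same libraries that were rich in fibroblast and stellate markers, and the part of those cells was not tested.

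Of 5 partners of the LRP co-receptors, 4 were tested and none was called. Mesd, the chaperone that LRP5 and LRP6 need to leave the endoplasmic reticulum, measured 25.4 ± 0.657 CPM in WT, 22.7 ± 3.10 in DD cultures and 20.2 ± 1.01 with rDKK3 added. Against WT, its log2 fold change was -0.16 for DD and -0.33 for DD + rDKK3 (adjusted p 0.703 and 0.349). Lrp10, another member of the LDL receptor family, measured 126 ± 13.2, 155 ± 30.4 and 158 ± 2.52 CPM, and Caprin2, which binds LRP5 and LRP6, measured 1.98 ± 0.577, 2.52 ± 0.422 and 2.10 ± 0.387 CPM.

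Of 11 other Wnt inhibitors that act outside the cell, 5 were tested. Apcdd1, a membrane-bound Wnt inhibitor, had 7 and 10 counts in WT, 35 and 21 in DD cultures, and 26 and 26 with rDKK3 added. Its WT libraries lay below the other 4, with a log2 fold change of 1.05 (SE 0.417) for DD against WT, where the adjusted p was 0.586, and 0.99 (SE 0.418) for DD + rDKK3 against WT, where it was 0.324. Sostdc1, a secreted LRP-binding antagonist, measured 1.15 ± 0.0389, 0.865 ± 0.354 and 1.07 ± 0.164 CPM. Trabd2b, a Wnt-cleaving protease, had 53 counts in DD 2 and 76 in DD + rDKK3 2 against 1 to 21 elsewhere, again in the libraries rich in fibroblast and stellate markers, whose part was not tested.

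Of 9 R-spondin pathway genes, 4 were tested. Lgr4, an R-spondin receptor, measured 56.6 ± 6.13 CPM in WT, 70.2 ± 8.87 in DD cultures and 74.7 ± 5.82 with rDKK3 added, with a log2 fold change of 0.40 in DD + rDKK3 against WT (SE 0.167, adjusted p 0.323). Znrf3, the ubiquitin ligase that removes Frizzled and LRP6 from the surface, measured 5.82 ± 1.29, 6.75 ± 0.821 and 8.06 ± 0.310 CPM. Rspo3, its secreted antagonist, had 83 counts in DD 2 and 58 in DD + rDKK3 2 against 3 to 20 in the other libraries, the same pattern as that of the fibroblast and stellate markers, whose part was not tested.

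Inside the cell, 21 of 23 genes of the destruction complex and its signal transducers were tested, and none was called. Bcl9l, a beta-catenin coactivator, measured 33.6 ± 3.72 CPM in WT, 36.5 ± 1.65 in DD cultures and 47.5 ± 2.72 with rDKK3 added, and DD + rDKK3 against DD gave a log2 fold change of 0.38 (SE 0.147, adjusted p 1.00). Dvl3, a Dishevelled that relays the receptor signal, measured 16.4 ± 4.26, 20.2 ± 3.17 and 25.9 ± 0.785 CPM, and Apc, a scaffold of the destruction complex, 53.7 ± 23.1, 78.1 ± 14.7 and 93.6 ± 7.19 CPM.

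Of 14 feedback targets, 9 were tested. Ccnd1, which encodes cyclin D1, measured 29.4 ± 2.45 CPM in WT, 31.0 ± 2.26 in DD cultures and 18.9 ± 0.247 with rDKK3 added. Both DD + rDKK3 libraries lay below the other 4, and the log2 fold change was -0.72 against DD (SE 0.151, unadjusted edgeR quasi-likelihood p 0.0016, adjusted p 1.00) and -0.64 against WT (SE 0.152, adjusted p 0.322). Tnfrsf19 measured 2.63 ± 0.944, 2.36 ± 0.0104 and 1.57 ± 0.0578 CPM. The 5 targets that did not pass the filter, named after their values were seen, were Axin2 (1 to 8 counts a library), Nkd1 (1 to 7), Lef1 (0 to 3), Sp5 (0 to 1) and Lgr5 (0 to 1). Other targets of the same list, also named after their values were seen, were well detected, with 565 to 1263 counts of Myc, 409 to 1006 of Cd44, 39 to 74 of Tcf7 and 25 to 77 of Rnf43. Notum and Nkd2, named in the same way, were tested at low counts. Notum had 17 counts in both DD 2 and DD + rDKK3 2, against 0 to 3 elsewhere. Nkd2 had 13 and 15, against 0 to 4. These were the libraries rich in fibroblast and stellate markers, whose part was not tested.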

How the data were processed

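RNA was sequenced from 6 acinar cultures, 2 in each of 3 groups, which were taken from the labels. The deposited values are raw counts that the authors made per gene: strand-specific paired-end reads of 50 bases were aligned with STAR 2.7.9a to GRCm39 with the basic GENCODE M32 annotation, and alignments over exons were counted and summed per gene, with secondary alignments ignored. A read matching several genes equally well can be lost by this counting, and a gene count does not separate exons. The submitters' notes also name DESeq2 1.38.0.

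The 92 spike-in rows, all at 0 counts, were left out. Genes were kept by filterByExpr (minimum count 10, minimum total 15), scaled by TMM and tested with edgeR 4.0.16 (R 4.3.3), quasi-likelihood F-test, two-sided, on all 6 libraries in 3 groups, with Benjamini-Hochberg adjustment over 14738 genes and calls under 0.05. Intervals of log2 fold changes use a t quantile on the 7.634 degrees of freedom of that fit. Members below the filter were fitted without it (26506 genes), where the spread of all genes was shared almost wholly. CPM used TMM-scaled totals, log2 CPM a prior count of 2, and RPKM the exon union of a later GENCODE release clipped to the deposited gene span. Limits for 0 counts are 3 counts. Exon positions and sequence came from the GRCm39 genome.

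Named genes are the 9 members, up to 3 genes of each pathway list with the smallest unadjusted p and a mean CPM of at least 1, since none was called, and the 3 nearest genes of each member past the filter. Members and lists were chosen with earlier results of these data known. Alternatives were DESeq2 1.42.0 with its size factors, library size alone, no filter, a replicate block and leaving out libraries. The procedure was tested on simulated data.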

Additional observations from a re-analysis of the deposited data

How the results depend on the processing

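Of 177 alternative values of 15 member log2 fold changes, 170 kept their direction and, as in the main fit, were not called. DESeq2 gave no adjusted p for Dkk3 and Dkkl1 in both comparisons with WT, nor for Kremen1 in DD + rDKK3 against WT. These values were taken as not called. A value that kept its direction could still change in size, as Dkk3 in DD against WT did, from 0.16 to 2.82 without WT 1. The 5 that reversed were Dkk3 in DD against WT (-0.84 without WT 2, range over left-out libraries -0.84 to 2.82), Dkk3 in DD + rDKK3 against WT (1.86 without WT 1, range -1.80 to 1.86), Lrp5 in DD + rDKK3 against DD (0.0095 without DD 1, range -0.11 to 0.0095), Dkkl1 in DD + rDKK3 against WT (-0.062 without DD + rDKK3 1, range -0.062 to 0.47) and Kremen1 in DD + rDKK3 against DD (-0.057 without DD 2 and DD + rDKK3 2 together). The other 2 were Lrp6 in DD + rDKK3 against WT, called with edgeR without the filter (0.76, adjusted p 0.0062) and with DESeq2 (0.72, adjusted p 0.0178), so that the number of members called in that comparison moved from 0 to 1 in both settings. The fit without the filter shared the spread of all genes almost wholly. Why the calls differed was not tested.

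Over all genes, calls in DD against WT moved from 6 to 65 with the replicate block, 528 without the filter, 80 with DESeq2, 14 without DD 2 and DD + rDKK3 2 together, and 2 to 6 when single libraries were left out. In DD + rDKK3 against DD they moved from 0 to 73 without the filter and stayed at 0 in the other settings. In DD + rDKK3 against WT they moved from 7 to 77 with the replicate block, 788 without the filter, 74 with DESeq2, and 2 to 9 when single libraries were left out. With library size alone the median over all genes moved, on the log2 scale, to 0.22 in DD against WT and 0.18 in DD + rDKK3 against WT, and no member changed direction. Where a group kept 1 library, it was assumed to vary like the others.

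The block paired the same-numbered Dkk3-null libraries, whose deviations from the group means correlated at 0.65, against -0.39 and -0.25 with WT. With 2 libraries a group these numbers show no pairing by design, and the block changed no call of a member. The labelled ages differ within each pair and, if right, mark its libraries as separate animals. Depth limits Dkk1, Dkk2, Dkk4, Kremen2 and Dkk3, and no statement on their regulation can be made from these counts.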
